A study of Mus musculus with 2 samples.

Results

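The clock output factors and rhythmic effectors are 9 genes that the liver clock drives or that feed back on it: the PAR bZIP activators Dbp, Tef and Hlf, their competitor Nfil3, the bHLH repressors Bhlhe40 and Bhlhe41, and the effectors Usp2, Noct and Wee1. They were taken by name, as every probe set annotated with 1 gene symbol that is in this set, which gave 15 probe sets for 9 of the 12393 genes named on the array. The genes were selected on the measured log2 ratios of this same comparison as well as on their known place in the clock, so their differences are given as a description, with no test.

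Liver RNA was measured on 2 Affymetrix 3' expression arrays. The oleanolic acid array carried pooled liver RNA of male mice deficient in apolipoprotein E, on a C57BL/6J background, fed a semipurified Western diet with 0.01% oleanolic acid, a plant triterpenoid, for 11 weeks, a dose of 10 mg per kg body weight each day. The control array carried pooled liver RNA of male mice of the same genotype and background on the Western diet without it for 11 weeks. Mice were 2 months old in the labels, and both groups share the Apoe deficiency and the Western diet. The growth protocol attached to the control sample also names oleanolic acid, so each array was assigned by its title and diet label. The number of mice per pool and the hour of tissue collection are not stated in the labels. Each diet is 1 pooled array without replicates, so no p-value was computed, and each difference describes these 2 arrays.

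In the liver clock, the activators CLOCK and BMAL1 (gene Arntl) bind E-box elements in promoters and enhancers and drive the genes of their own repressors together with output genes such as Dbp. The PAR bZIP proteins (named for a domain rich in proline and acidic amino acids) then activate genes that carry D-box elements, and NFIL3 represses through the same elements. Nfil3 is itself repressed by the REV-ERB receptors through ROR elements, so its peak falls at another time of day than that of Dbp.

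The promoter windows held for the genes that the results turn on are shown here. E-box, D-box and ROR elements are the sites through which these genes are known to be wired to the clock. Windows run from 250 bases before to 50 bases after an annotated start, are written 5′ to 3′ in the direction of transcription, and come from RefSeq on GRCm38.p6. Capitals mark matches to an E-box (CACGTG), a D-box (TTATGTAA or TTACGTAA) or a ROR element (TAGGTCA or TGGGTCA), searched on both strands. No 2 matches overlapped.
Usp2, chr9:44084670-44084969, plus strand: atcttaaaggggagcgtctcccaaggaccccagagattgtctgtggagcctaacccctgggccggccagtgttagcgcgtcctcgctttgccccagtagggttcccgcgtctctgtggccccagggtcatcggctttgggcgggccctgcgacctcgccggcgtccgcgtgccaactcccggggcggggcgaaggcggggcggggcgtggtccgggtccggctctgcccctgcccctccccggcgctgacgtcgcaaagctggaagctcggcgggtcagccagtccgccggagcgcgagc
Noct, chr3:51224197-51224496, plus strand: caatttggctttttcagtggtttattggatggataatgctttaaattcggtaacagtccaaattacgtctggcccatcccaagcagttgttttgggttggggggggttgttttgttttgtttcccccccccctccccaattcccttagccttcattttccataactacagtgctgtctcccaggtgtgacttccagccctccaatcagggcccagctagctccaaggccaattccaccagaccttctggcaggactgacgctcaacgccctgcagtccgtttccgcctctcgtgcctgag
Dbp, chr7:45704997-45705296, plus strand: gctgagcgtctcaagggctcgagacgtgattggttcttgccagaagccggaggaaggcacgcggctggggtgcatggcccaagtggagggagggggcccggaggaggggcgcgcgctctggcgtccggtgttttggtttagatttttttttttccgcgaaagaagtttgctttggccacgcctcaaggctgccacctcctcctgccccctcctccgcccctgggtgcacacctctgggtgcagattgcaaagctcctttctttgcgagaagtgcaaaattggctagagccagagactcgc
Tef, chr15:81802423-81802722, plus strand: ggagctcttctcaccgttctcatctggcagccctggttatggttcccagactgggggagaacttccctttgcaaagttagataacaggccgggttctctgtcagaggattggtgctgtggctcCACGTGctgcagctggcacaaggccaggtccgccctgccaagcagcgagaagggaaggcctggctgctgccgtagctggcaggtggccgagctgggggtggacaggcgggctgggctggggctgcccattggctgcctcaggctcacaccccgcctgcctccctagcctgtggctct
Tef, chr15:81811164-81811463, plus strand: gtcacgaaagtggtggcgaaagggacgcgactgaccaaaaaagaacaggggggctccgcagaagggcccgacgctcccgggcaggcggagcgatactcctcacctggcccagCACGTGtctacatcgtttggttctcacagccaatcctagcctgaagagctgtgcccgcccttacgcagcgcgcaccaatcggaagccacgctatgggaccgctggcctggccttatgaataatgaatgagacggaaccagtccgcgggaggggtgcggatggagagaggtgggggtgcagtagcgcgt
Nfil3, chr13:52980990-52981289, minus strand: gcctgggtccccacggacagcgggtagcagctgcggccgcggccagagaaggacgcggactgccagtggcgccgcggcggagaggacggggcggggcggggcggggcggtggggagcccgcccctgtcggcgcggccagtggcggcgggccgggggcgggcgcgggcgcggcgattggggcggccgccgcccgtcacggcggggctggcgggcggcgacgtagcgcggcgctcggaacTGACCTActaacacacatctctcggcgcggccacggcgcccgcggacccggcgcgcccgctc

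A window was held for 7 of the 9 genes, with 2 starts for Tef, 8 windows in all. Wee1 and Bhlhe40 had no window, so their promoters were not searched. An E-box lay in 3 of the 8 windows, those of both Tef starts and of Bhlhe41, against 7.15% of all 32851 windows in the table. In the Tef windows it began 127 and 138 bases before the start, and in that of Bhlhe41 153 bases before it. The one ROR element match was in the Nfil3 window, on the opposite strand, 12 bases before the start (6.45% of all windows hold one). The D-box words were in none of the 8 windows, and in 1.06% of all windows. The windows of Usp2, Noct, Dbp and Hlf held none of these words. That says only that the letters are not in these 300 bases, since such elements can lie in introns or farther upstream. The GC content of the 8 windows ran from 52.0% to 81.7%, and the median of all windows was 52.7%.

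Signals are linear MAS5 probe set intensities in arbitrary units. A probe set was counted as measured when its signal reached the median of its array (59.3 in the oleanolic acid array and 61.5 in the control array) on at least 1 array. By this filter 12 of the 15 probe sets and 8 of the 9 genes were measured, among 7137 measured genes in all. A gene was given the mean log2 ratio of its measured probe sets, with oleanolic acid over control throughout. Its error is the SD between probe sets where a gene has at least 2 measured, and otherwise the pooled SD between probe sets of genes of like signal. Either is called the probe set SD below and holds the disagreement between probe sets on these arrays. It holds no variation between mice and no error that all probe sets of an array share.

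Of the 8 measured genes, 7 had a log2 ratio below 0 (49.7% of all measured genes had one) and 1, Nfil3, had one above 0 (50.2% of all). A log2 ratio below -1.5, the size that the study's design text names, was reached by 2 of the 8 (Usp2 and Noct), against 0.28% of all measured genes. Below -1 there were 4 of the 8 (Usp2, Noct, Dbp and Wee1), against 0.631% of all measured genes, and below -0.5 there were 5 (with Tef), against 3.24%. Above 0.5 there was 1 of the 8, against 2.63%. The median of the 8 was -1.06, and that of all measured genes was 0.0012. Because the genes were proposed on this comparison, these shares are printed beside each other and nothing is read from them.

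**Figure D1:**
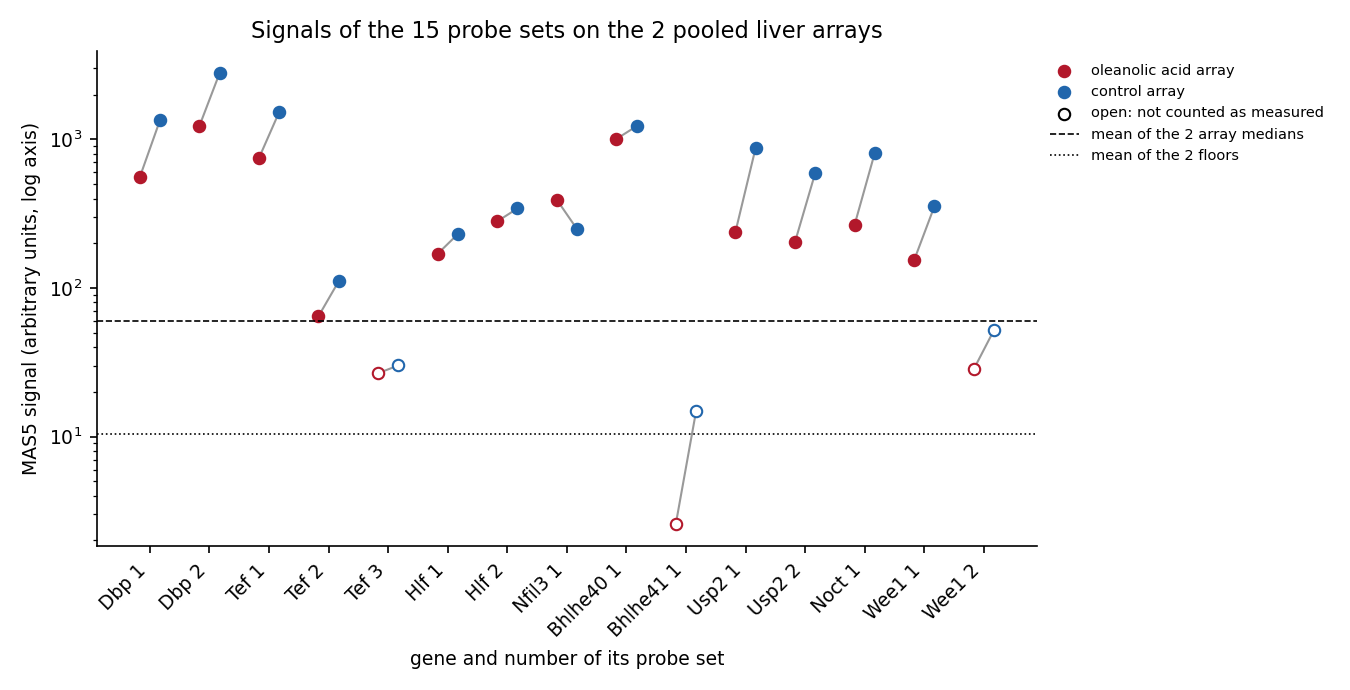
MAS5 signal in arbitrary units on a log axis of each of the 15 probe sets, oleanolic acid array in red and control array in blue, 1 pooled array per diet, with a grey line joining the 2 signals of a probe set. Filled points are measured probe sets, and 11 of the 12 are lower in the oleanolic acid array, with Nfil3 as the exception.

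The PAR bZIP activators were all lower in the oleanolic acid array, Dbp the most and Hlf the least. Dbp, which encodes the D-box binding protein whose transcript has one of the widest daily swings in liver, was read by 2 measured probe sets. The first had a signal of 555.6 in the oleanolic acid array, against 1345.7 in the control array, and the second had 1225.9 against 2786.5. Both probe sets were lower in the oleanolic acid array by nearly the same factor. The log2 ratio of Dbp was -1.23 (probe set SD 0.06, n = 2 probe sets), which is 2.35-fold lower.

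Tef encodes thyrotroph embryonic factor, a second PAR bZIP activator. Its brightest probe set had a signal of 746.9 in the oleanolic acid array, against 1524.9 in the control array. A dimmer measured one had 64.5 against 111.0, and the dimmest, at 26.7 against 30.1, was below both array medians and was left out of the gene value. The 3 probe sets thus shared a direction but not a size, with log2 ratios of -1.03, -0.78 and -0.17 in order of falling signal. The log2 ratio of Tef was -0.91 (probe set SD 0.17, n = 2 probe sets) and was -0.66 with the dimmest probe set included.

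Hlf encodes hepatic leukemia factor, the third activator of the family. Its probe sets, which are annotated to the same transcript sequence, had signals of 169.7 and 280.5 in the oleanolic acid array, against 230.7 and 343.0 in the control array. Both were lower in the oleanolic acid array, with a gene log2 ratio of -0.37 (probe set SD 0.11, n = 2 probe sets). That lies inside the central 95% of all measured genes, which ran from -0.56 to 0.51. Dbp minus Tef came to -0.32 and Tef minus Hlf to -0.54 on the log2 ratio scale, both larger than the probe set SD of either gene.

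Nfil3, which encodes the bZIP repressor that competes with the PAR bZIP proteins for D-boxes, was the one measured gene of the set that was higher. Its only probe set had a signal of 393.3 in the oleanolic acid array, against 249.3 in the control array. The log2 ratio was 0.66 (probe set SD 0.17), 1.58-fold higher, and 87 of the 7137 measured genes had a larger one. The difference in log2 ratio between Dbp and Nfil3, Dbp minus Nfil3, was -1.89, with an activator of D-boxes lower and their repressor higher in the same array.

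The bHLH repressors differed little or were too dim to read. Bhlhe40 (DEC1), which binds E-boxes and opposes CLOCK and BMAL1, had a signal of 1005.7 in the oleanolic acid array, against 1227.6 in the control array. Its log2 ratio of -0.29 (probe set SD 0.13) lay inside the central 95% of all measured genes. Its relative Bhlhe41 (DEC2) had signals of 2.6 in the oleanolic acid array and 14.9 in the control array. Both are far below the array medians, and the first is under the floor of 10.1 to which low signals were raised, so no ratio is given.

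**Figure D2:**
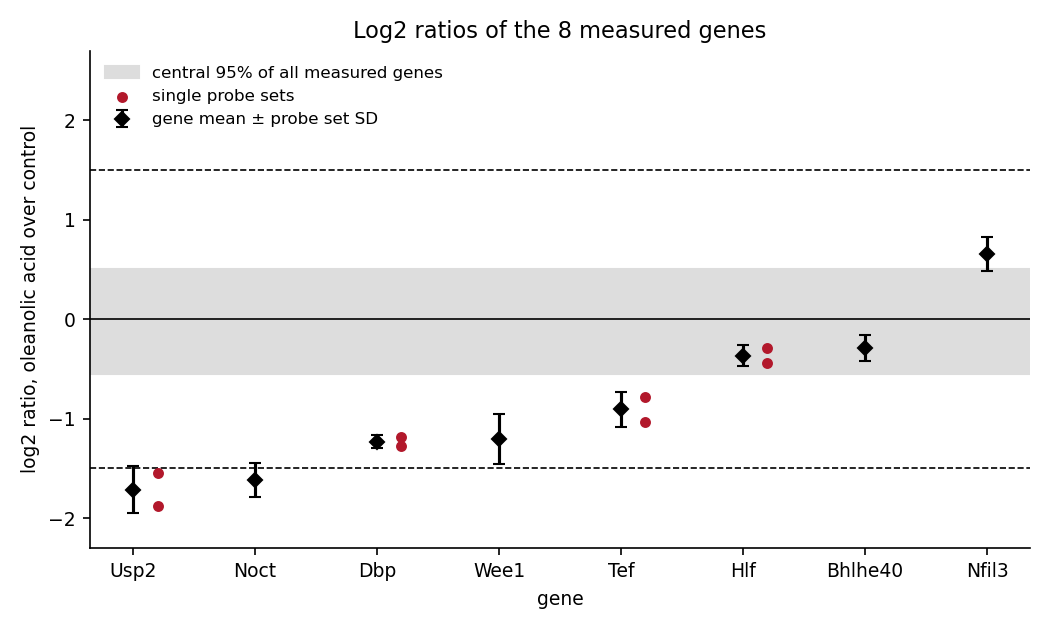
Log2 ratio, oleanolic acid over control, of the 8 measured genes in rising order, with black diamonds and bars for the gene mean ± probe set SD, red points for single probe sets of genes with 2, a grey band for the central 95% of all measured genes and dashed lines at -1.5 and 1.5. Usp2 and Noct lie below -1.5, Hlf and Bhlhe40 lie inside the band, and Nfil3 lies above it.

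The effectors were all lower in the oleanolic acid array, and Usp2 and Noct had the lowest log2 ratios of the set. Usp2 encodes a ubiquitin-specific protease that removes ubiquitin from its substrates, clock proteins such as PER1 and BMAL1 among them. Its 2 probe sets, annotated to the same transcript sequence, had signals of 238.7 and 204.1 in the oleanolic acid array, against 880.1 and 595.8 in the control array. Both were lower in the oleanolic acid array, the first by 3.69-fold and the second by 2.92-fold. The log2 ratio of Usp2 was -1.71 (probe set SD 0.24, n = 2 probe sets), and 12 measured genes had a lower one.

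Noct encodes nocturnin, a relative of the CCR4 deadenylases that removes a phosphate from NADP and NADPH and is strongly rhythmic in mouse liver. Its only probe set with 1 symbol had a signal of 266.2 in the oleanolic acid array, against 814.6 in the control array. It was 3.06-fold lower, with a log2 ratio of -1.61 (probe set SD 0.17). A further probe set is annotated to Noct together with Sgip1 and Cog6 and had signals of 2089.9 in the oleanolic acid array and 1960.2 in the control array. Which of the 3 genes that signal comes from is unknown, and it was left out.

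Wee1 encodes the kinase that holds CDK1 inactive before mitosis, and it is a rhythmic gene of mouse liver driven through E-boxes. Its measured probe set had a signal of 154.1 in the oleanolic acid array, against 354.9 in the control array. A second one, annotated to the same transcript, had 28.4 against 52.1 and was below the median on both arrays. Both were lower in the oleanolic acid array. The log2 ratio of Wee1 was -1.20 (probe set SD 0.25) from the measured probe set and -1.04 with both.

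In the order of log2 ratios, some neighbours could not be separated by their probe set SDs. Usp2 minus Noct came to -0.10 and Dbp minus Wee1 to -0.03, each smaller than either probe set SD of its pair. The likeness of other genes was measured as the absolute difference in log2 ratio over the 2 arrays, among genes whose mean log2 signal lay within 1 of the member's. The nearest to Usp2 were Atp6v1e1, a subunit of the vacuolar proton pump (log2 ratio -1.22, probe set SD 1.60, n = 2 probe sets), 0.49 away, and Dclre1a, a DNA crosslink repair nuclease (-1.20, probe set SD 0.25), 0.52 away. The nearest to Noct were Atp6v1e1 again, 0.39 away, and Elovl6, which elongates palmitate (-1.01, probe set SD 0.08, n = 2 probe sets), 0.60 away.

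**Figure D3:**
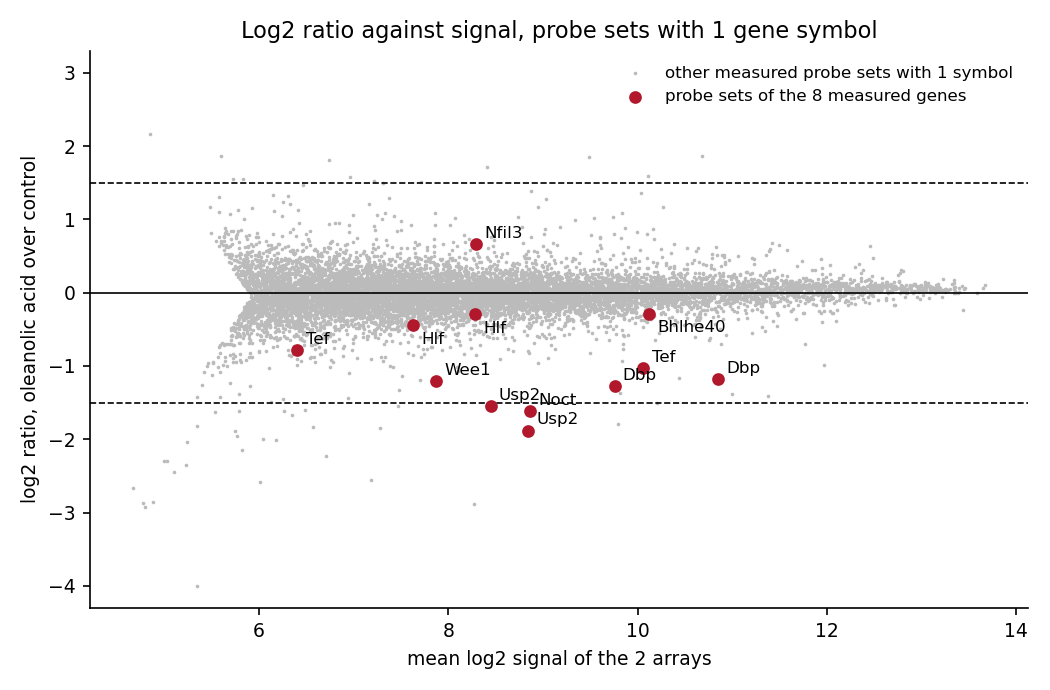
Log2 ratio, oleanolic acid over control, against the mean log2 signal of the 2 arrays for measured probe sets with 1 gene symbol, with the 12 measured probe sets of the set in red and the others in grey. The probe sets of Usp2, Noct, Dbp and the brighter one of Tef lie below the bulk of probe sets at like signal, and those of Hlf and Bhlhe40 lie nearer to 0.

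The other genes of the pathway were taken from lists set up with earlier results known. The core clock list holds 19 genes, of which 12 were measured, with a median of -0.12, 3 below -0.5 (25%, against 3.24% of all measured genes) and 3 above 0.5 (25%, against 2.63% of all). Higher in the oleanolic acid array were Arntl (92.5 against 25.3 in the control array, log2 ratio 1.87, probe set SD 0.27), Nr1d1, which encodes REV-ERB-alpha (107.4 against 60.4, log2 ratio 0.83), and Clock (log2 ratio 0.76, probe set SD 0.13, n = 2 probe sets). The period genes, which encode repressors of CLOCK and BMAL1, were lower. Per3 had 81.9 against 293.5 (log2 ratio -1.84), Per2 had 74.8 against 201.8 (-1.43), and Per1 had 160.4 against 217.8 (-0.44). Arntl, Nr1d1 and Cry1 (67.3 against 50.7) were below the control median of 61.5 and passed the filter through the oleanolic acid array alone. With both arrays required at their median, 1 core clock gene was above 0.5 and the list median was -0.44. Arntl was at 0.59 with the floor at each array's median, and with dim probe sets included Per3 was at -0.82 and Nr1d2 at -0.98. Nr1d2, which encodes REV-ERB-beta, was at -0.58, so the REV-ERB genes, whose products both repress Nfil3, had opposite signs. Of the other measured core clock genes, the repressors Cry2 and Cry1 were at -0.48 and 0.41 (Cry1 at 0.13 with the floor at each array's median), the activator Rora at -0.18, and the kinases Csnk1d and Csnk1e at -0.05 and 0.03.

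Genes described as depending on PAR bZIP factors in liver did not share one direction. Of 17 on the list 11 were measured, 2 below -0.5 (18.2%, against 3.24% of all measured genes) and 2 above 0.5 (18.2%, against 2.63% of all), with a median of -0.18. Alas1, the rate-limiting enzyme of heme synthesis, had signals of 1261 in the oleanolic acid array and 2857 in the control array (log2 ratio -1.18, probe set SD 0.26, n = 2 probe sets). Cyp7a1, which catalyses the rate-limiting step of bile acid synthesis, was at -0.64 (probe set SD 0.02, n = 2 probe sets), the nuclear receptor Ppara at -0.34 and the acyl-CoA thioesterase Acot3 at -0.24. Its relative Acot1 was at 0.80 and the cytochrome P450 gene Cyp2b9 at 1.81, higher in the oleanolic acid array. Cyp2b9, at 57.0 in the control array, passed the filter through the oleanolic acid array alone. With both arrays required at their median, 1 gene of the list was above 0.5. Cyp2b9 and the Acot genes have close paralogs that their probe sets may also bind.

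Other genes known to be rhythmic in liver were spread widely to both sides. Of 19 on the list 16 were measured, 6 below -0.5 and 4 above 0.5, so 37.5% were below -0.5 (3.24% of all measured genes) and 25% above 0.5 (2.63% of all), with a median of -0.22. With both arrays required at their median, 6 were below -0.5 and 3 above 0.5. The lowest were Thrsp, a nuclear protein tied to lipogenesis (log2 ratio -1.61, probe set SD 0.27), Upp2, a uridine phosphorylase (941 against 2558 in the control array, log2 ratio -1.44, probe set SD 0.09), and the phosphatidate phosphatase Lpin1 (-1.15, probe set SD 0.03), each from 2 probe sets. The highest were the fatty acid elongase Elovl3 (1.86, probe set SD 0.13), Insig2, which retains the SREBP escort protein in the endoplasmic reticulum (1602 against 695, log2 ratio 1.21, probe set SD 0.14, n = 3 probe sets), and the vasopressin receptor Avpr1a (1.06, probe set SD 0.21, n = 2 probe sets).

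Relatives of the members by protein family were grouped in the same way. Of all measured genes, 3.24% were below -0.5 and 2.63% above 0.5, so most genes on the arrays also lay within 0.5 of 0. Of 20 measured ubiquitin-specific proteases other than Usp2, 20 lay within 0.5 of 0, from -0.43 (Usp16) to 0.36 (Usp3), with a median of -0.05. Among 13 measured deadenylases and cofactors, relatives of nocturnin or their partners, 12 lay within 0.5 of 0, with a median of -0.02. The exception, Angel1, was at 0.79 (probe set SD 0.27, and 0.34 with the floor at each array's median). Angel1, at 45.1 in the control array, passed the filter through the oleanolic acid array alone. Of 10 measured C/EBP and ATF genes, which also encode bZIP factors, none was below -0.5, and Atf3 (0.95) and Atf5 (0.56) were above 0.5, with a median of 0.0088. Of 6 measured Hes, Hey and Id genes, helix-loop-helix relatives of Bhlhe40, 4 were above 0.5 (Hes1 at 0.70, Id2 at 0.62, Id3 at 0.57 and Id4 at 0.53), Id1 was at 0.20 and Hes6 at -0.50, with a median of 0.55. The Id4 value has a probe set SD of 0.58 over 3 probe sets, larger than the value itself. It was 0.15 with the floor at each array's median and 0.045 from its brightest probe set alone. The Id4 probe sets at 66.8 against 29.7 and at 75.2 against 58.1 in the control array passed the filter through the oleanolic acid array alone. Of 10 named G2 to M regulators, the setting in which WEE1 acts, 8 were too dim to be measured. Cdc25a (0.42, and 0.18 with the floor at each array's median) and Cdk2 (0.03) were within 0.5 of 0. The dimmer Cdc25a probe set, at 61.7 against 44.3 in the control array, also passed through the oleanolic acid array alone.

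**Figure D4:**
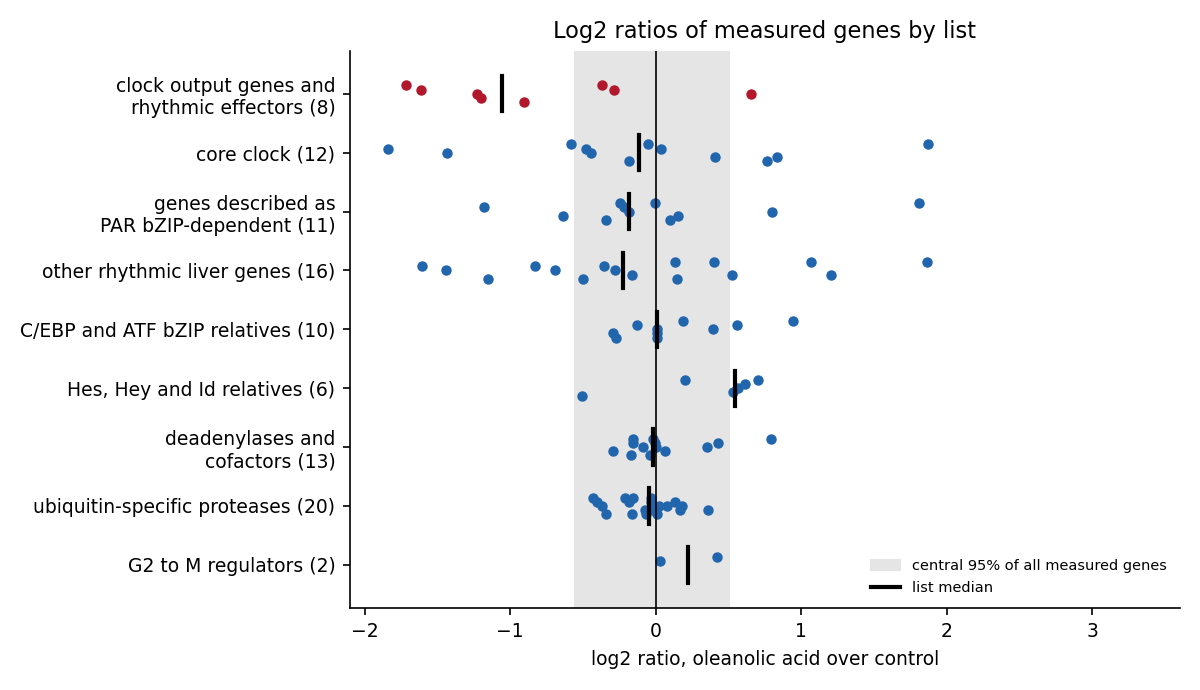
Log2 ratio, oleanolic acid over control, of each measured gene by list, with the number of measured genes in brackets, the clock output genes and rhythmic effectors in red and other lists in blue, a black bar at each list median and a grey band for the central 95% of all measured genes. The red points are mostly left of the band, the core clock and other rhythmic genes lie on both sides of it, and the 20 ubiquitin-specific proteases lie inside it.

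Markers of hepatocytes and of other cell types were read on the same arrays. Of all measured genes, 49.7% were below 0, 3.24% below -0.5 and 0.28% below -1.5, and 2.63% were above 0.5. Of 9 measured hepatocyte markers, 8 lay within 0.5 of 0, among them Alb at 0.07, and the exception, the rhythmic aminotransferase gene Tat, was at -0.70 (2725 in the oleanolic acid array, against 4440 in the control array). The summed signal of the hepatocyte probe sets was 120649 in the oleanolic acid array and 118864 in the control array. Of 8 measured exocrine pancreas markers, 8 were below 0 and 6 below -1.5, with a summed signal of 989 against 2192 in the control array. For 5 named B and plasma cell markers, 2 of them measured, the sum was 482 against 1594, and for 4 named brown fat markers, 3 of them measured, it was 103 against 280. Ucp1 and Cox8b, which define brown fat, were under the floor in the oleanolic acid array only. Of 6 measured macrophage markers, 6 were below 0, but 5 of them lay within 0.5 of 0 and the median was -0.15. The exception was Marco at -0.67, and the summed signal was 9198 against 10059 in the control array. The remaining lists were less one-sided or had 1 measured gene. Of 4 measured endothelial markers, 2 were below 0 and 2 above it, with a summed signal of 1024 against 1130 in the control array. Of 2 measured stellate cell markers, Lrat was at 0.66 and Col3a1 at -0.15, with a sum over the list of 1262 against 1363. The cholangiocyte list had Epcam at -0.94 as its 1 measured gene and a sum of 135.0 against 134.6, and the T and NK cell list had Ms4a4b at -0.85 and a sum of 127 against 197. Among the lower markers, Cpb1, Ctrb1, Cela2a, Cpa1, Jchain, Ucp1, Cox8b, Epcam and Ms4a4b were below the median of 59.3 in the oleanolic acid array. They passed the filter through the control array alone, which fixes their direction. The gene signals of Prss2, Cela3b and Clps, over several probe sets, were below that median too. Lrat, at 48.1 in the control array, passed through the oleanolic acid array alone. The measured pancreas, B and plasma cell, brown fat and macrophage markers were thus lower in the oleanolic acid array, in part through the filter. Most of the clock output genes were lower too, and the part of these markers in those differences was not tested. In whole liver, fewer cells of a type and less RNA per cell cannot be told apart. Apoe, the gene disrupted in both groups, had a signal of 232 in the oleanolic acid array and 194 in the control array, from 1 probe set whose place relative to the disruption is unknown.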

How the data were processed

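Per the submitters' processing notes, MAS5 (version not stated) made the deposited intensities, which are linear, 1 per probe set, for 1 array of pooled liver RNA per diet. A mean trimmed by 2% at either end came to 300.1 on both arrays, so they were not scaled again. No detection calls were used here. The table holds 22690 probe sets, of which 64 are controls. By the platform annotation 20380 carry 1 gene symbol, 691 several and 1555 none, and those with several or none entered no gene value. Signals below the 25th percentile of an array (10.1 oleanolic acid, 10.7 control) were raised to it before taking log2. Error was the gene's own SD between probe sets where it had several measured. For genes with 1 measured probe set it was the pooled SD of 1 of 4 bands of rising signal (0.27, 0.25, 0.17 and 0.13). Pooled over all 2427 genes with several measured probe sets, the SD was 0.20. The number of arrays limits the precision.

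Genes named are all 9 members, every measured core clock gene, up to 6 genes with the largest absolute log2 ratio per other list, and the 2 genes nearest in log2 ratio to each member past 1.5. Further marker genes are named after their values were seen. The members and lists were chosen with earlier results of these data known. The gene values were tested on simulated data. The 10 alternatives cover the floor, the filter, the scaling between arrays, the gene summary and a pseudocount of 16. Python 3.11.15, pandas 2.3.3, NumPy 2.4.6 and statsmodels 0.14.6 were used.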

Additional observations from a re-analysis of the deposited data

How the results depend on the processing

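The 10 alternatives gave 79 log2 ratios of the 8 measured genes, and 79 had the sign reported. Of these, 78 moved by less than the probe set SD, and 1 moved by more, Tef at -0.66 with all probe sets counted. The 12 measured probe sets of these genes were above the median of both arrays. Removing the floor, raising it to the median or requiring both arrays at their median therefore could not change their values. The brightest probe set alone could not change the 4 genes with 1 measured probe set. Counting all probe sets could change only Tef and Wee1. Leaving out probe sets ending in _x_at, _s_at and _a_at could change only Dbp, Usp2 and Noct. Noct has no value without probe sets ending in _x_at, _s_at and _a_at, where 1 gene of the set, Usp2 at -1.55, was below -1.5. With all probe sets counted, all genes below -1.5 came to 34, below -1 to 122, above 1 to 64, below -0.5 to 691 and above 0.5 to 452, against 20, 45, 28, 231 and 188. With the floor at the array median there were 5 below -1.5, 5 above 1.5, 25 below -1 and 18 above 1. With both arrays required at their median there were 5, 5, 18 and 18, with 145 below -0.5. With the pseudocount there were 11 below -1.5, 4 above 1.5 and 18 above 1, and without probe sets ending in _x_at, _s_at and _a_at 13 were below -1.5. The core clock median was -0.44, with 1 gene above 0.5, with both arrays at their median, and -0.33 without those probe sets. Of the genes described as PAR bZIP-dependent, 1 was above 0.5 with both arrays at their median. The Hes, Hey and Id list had 0 genes below -0.5 with quantile normalization, intensity-dependent centring, the brightest probe set alone, the pseudocount and without those probe sets, and with the brightest probe set alone a median of 0.34 with 2 above 0.5. The deadenylase list had 0 genes above 0.5 with the higher floor and with both arrays at their median, and 2 with the brightest probe set. The C/EBP and ATF list had 1 below -0.5 with all probe sets counted and 1 above 0.5 without those probe sets. With all probe sets counted the G2 to M list had a median of 0.017, 2 below -0.5 and 1 above 0.5. No paired analysis was possible because there is 1 array per diet. With no detection calls used, signal over background limits what can be said of Bhlhe41 and of the dim probe sets of Tef and Wee1.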
